A study of Rattus norvegicus with 10 samples.

Results

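A set of 10 genes that handle amyloid and lipid were followed in the hippocampus of a rat model of Alzheimer's disease: Apoe, Clu, Abca1, Abca7, Lrp1, Sorl1, Bin1, Picalm, Ide and Mme. They were chosen by name, and 10 of 10 were found among the 17168 genes of the deposited tables. The tissue was left hippocampus, taken at 11 months of age from 10 males of the TgF344-AD line, and each library is 1 rat. The 5 untreated rats ate plain rodent chow. The other 5 ate chow with 750 mg of RG2833 per kg, a compound that blocks class I histone deacetylases, from the age of 5 months and for 6 months. In its sentence on timing the design text names a different drug, ibudilast, whereas the title and the treatment label of each rat name RG2833. All 10 rats carry the transgenes. As background, this line expresses mutant human amyloid precursor protein and presenilin from the mouse prion promoter, so amyloid is made in both groups. Neither females nor animals without the transgenes were analysed here.

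Amyloid-beta peptide that neurons release can be bound by lipid-carrying proteins, taken up by cells, moved across the vessel wall or cut by peptidases. Apolipoprotein E and clusterin are the main carriers of lipid made in the brain, chiefly by astrocytes. ABCA1 and ABCA7 load lipid onto such particles, and LRP1 and SORL1 are receptors that bind them or sort the amyloid precursor. BIN1 and PICALM shape membranes during endocytosis, and IDE and neprilysin, the product of Mme, degrade amyloid-beta. Variants near the human counterparts of several of these genes, APOE above all, are associated with late-onset Alzheimer's disease.

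Libraries held from 15118203 to 18533520 expected counts, and the 10 genes together took from 0.827% to 1.12% of them. Levels are CPM, the counts per 1000000 counts of a library whose size was adjusted by TMM (trimmed mean of M-values). No transcript lengths were used, so levels are compared between rats and never between genes. Of the 17168 genes, 12161 had enough counts to be tested, the 10 followed here among them. The hippocampal label was set beside markers of its neurons, whose detection alone does not prove the region sampled. Prox1 of dentate granule cells was detected in every library, from 4.30 to 50.5 CPM, and Grik4 of CA3 pyramidal cells from 29.5 to 137 CPM. Both were lowest in the same 3 libraries, described further on. Untreated replicate 2 and RG2833 replicate 1 stood apart in choroid plexus RNA: Ttr, the transthyretin of that epithelium, was at 6929 and 8190 CPM in these libraries and at most 236 CPM in the other 8.

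Apoe, Abca1, Lrp1 and Sorl1 are the genes whose highest or lowest levels fell in the same 3 rats, as described further on, and their upstream sequence is printed for that reason. The letters are those of RefSeq on the rat GRCr8 assembly, whereas the submitters' processing notes name rn6. Of the 10 genes, 9 had an entry; Clu had none. The windows lie upstream of the start of transcription, at chr1:88485817-88486066 for Apoe, chr7:65346197-65346446 for Lrp1 and chr5:72596564-72596723 for Abca1. For matches that lie within a longer annotated transcript of Abca1 or Sorl1, only 30 bases are shown, at chr5:72596521-72596550 and chr8:51401429-51401458. All are given 5′ to 3′ on the minus strand. Capitals mark 4 motifs searched on both strands: the GC box GGGCGG, the TATA box TATAAA, the E-box CACGTG, and a repeat of the nuclear receptor half-site, spelled TGACC, then any 5 bases, then TAACC. On the other strand GGGCGG reads CCGCCC. No marked match overlaps another.
Apoe upstream: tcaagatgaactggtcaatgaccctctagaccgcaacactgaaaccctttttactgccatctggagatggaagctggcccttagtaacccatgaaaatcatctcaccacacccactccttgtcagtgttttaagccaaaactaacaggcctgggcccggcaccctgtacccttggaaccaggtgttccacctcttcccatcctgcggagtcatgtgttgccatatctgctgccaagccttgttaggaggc
Lrp1 upstream: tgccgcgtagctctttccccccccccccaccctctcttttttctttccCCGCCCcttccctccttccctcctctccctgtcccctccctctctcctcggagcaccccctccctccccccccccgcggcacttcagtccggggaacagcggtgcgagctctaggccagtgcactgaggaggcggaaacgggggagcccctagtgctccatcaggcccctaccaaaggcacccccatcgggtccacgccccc
Abca1 upstream: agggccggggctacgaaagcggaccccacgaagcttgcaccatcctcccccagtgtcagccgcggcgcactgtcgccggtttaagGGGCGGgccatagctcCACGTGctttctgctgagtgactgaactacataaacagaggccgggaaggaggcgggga
Abca1 repeat site: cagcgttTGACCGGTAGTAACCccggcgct
Sorl1 E-box site: gttgcgagcacaCACGTGacggtgcggcgc

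In windows of 250 bases before a start, GGGCGG was found in 30.5% of 33469 rat promoters, TATAAA in 12.9%, CACGTG in 5.59% and the half-site repeat in 0.0448%. Abca1 held 1 match of each of the 4 motifs, the TATAAA outside the printed bases, and Lrp1 held 1 GC box. The Sorl1 window held 1 E-box and 43 CG dinucleotides, at the 99.5 percentile of all windows, where the median was 5. RefSeq gives Apoe 3 starts. The outermost one, printed above, held 3 CG dinucleotides and none of the 4 motifs, and each of the other windows held 2 GC boxes. A match describes these letters and is no evidence of binding. The half-site repeat was searched in 1 narrow spelling, so its low share does not show that the Abca1 match is unusual.

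None of the 10 transcripts changed with RG2833 by the test across all genes. In edgeR's quasi-likelihood test with Benjamini-Hochberg adjustment over 12161 genes, 0 of the 10 had an adjusted p under 0.05, where 0% of all genes did. At an unadjusted p under 0.05 there were again 0 of 10, against 5.66% of all genes (2.94% higher and 2.71% lower in RG2833), and in 0 of 10 were the CPM values of the groups apart, against 1% of all genes. DESeq2 called 0 of 10 and 6 genes in all (0.0409% of those with a p), limma-voom with sample weights 0 of 10 and 0 genes, and a fit with 2 surrogate variables 0 of 10 and 118 genes (0.97%). The unadjusted counts depended on the fit. With 2 surrogate variables 4 of 10 were under 0.05, Apoe, Clu, Bin1 and Lrp1, against 16.1% of all genes, and with sample weights 3 of 10, Apoe, Bin1 and Abca1, against 10.4%. Of the 10 log2 fold changes of RG2833 over untreated, 8 were above 0 and 2 below, with a median of 0.057; over all genes the median was -0.011, and 46.5% were above 0. The 95% intervals lay between a fold of 0.708, the lower bound for Sorl1, and 1.54, the upper bound for Apoe. Labels do not say whether litters or cages were shared, so the p-values measure the spread between these rats.

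**Figure D1:**
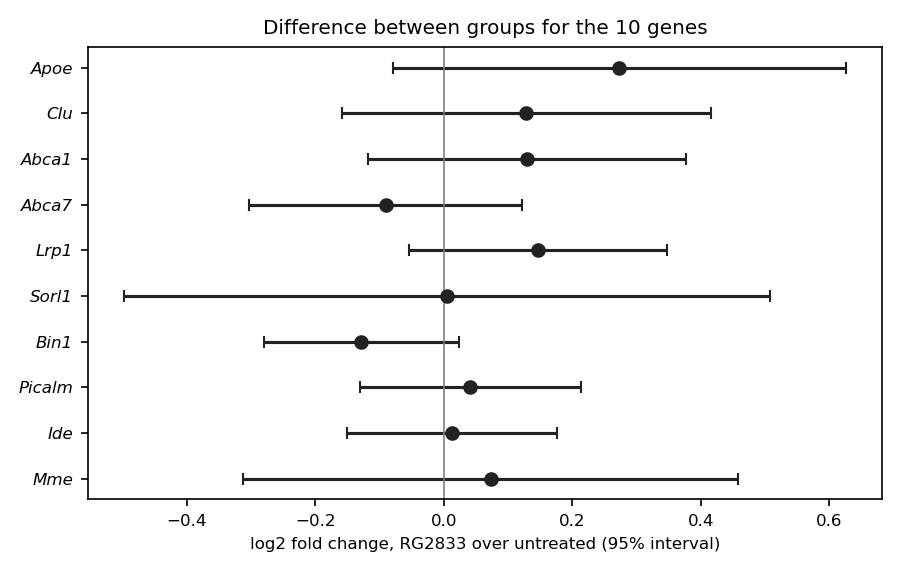
Points are log2 fold changes of RG2833 over untreated (5 rats each) from the edgeR fit and bars are 95% intervals. All 10 intervals include 0, and that of Sorl1 is the widest, from -0.50 to 0.51.

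Among the lipid carriers, Apoe had the highest point estimate of the 10 genes. Its level in untreated replicates 1 to 5 was 5226, 5014, 8009, 4936 and 5473 CPM, and in RG2833 replicates 1 to 5 it was 5642, 6746, 6334, 8225 and 7693 CPM. The groups overlapped because of a single untreated rat: replicate 3 lay above 4 of the 5 treated rats, while the other untreated rats lay below all of them. Means were 5732 ± 1290 and 6928 ± 1038 CPM (SD, n = 5 each). The fitted log2 ratio was 0.27 (SE 0.16; 95% interval -0.079 to 0.63; edgeR adjusted p = 0.841; two-sided exact permutation p = 0.127, n = 5 each). Without untreated replicate 3 the log2 fold change was 0.42, with an unadjusted p of 0.00476 and an adjusted p of 0.280 in edgeR. Without RG2833 replicate 4, the highest treated rat, it was 0.21 (unadjusted p = 0.245 in edgeR). The fit without untreated replicate 3 had 1732 genes at an unadjusted p under 0.05, against 688 with all libraries.

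Clu encodes clusterin, a secreted chaperone also called apolipoprotein J. Untreated rats 1 to 5 had 1061, 1656, 1391, 1313 and 1234 CPM, and RG2833 rats 1 to 5 had 1728, 1300, 1259, 1519 and 1470 CPM. The highest level of each group was in its library rich in choroid plexus RNA, an epithelium that itself makes clusterin; the part of this RNA in the level was not tested. The log2 fold change was 0.13 (SE 0.13; 95% interval -0.16 to 0.42; edgeR adjusted p = 0.921). Without both of those libraries it was 0.14, without untreated replicate 2 alone 0.22 and without RG2833 replicate 1 alone 0.059. Without untreated replicate 1, the lowest in Clu, it was 0.058.

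The 2 lipid exporters differed in the sign of their estimates. Abca1, which hands cholesterol and phospholipid to apolipoprotein E, was at 36.8, 42.3, 52.8, 35.6 and 37.2 CPM in untreated replicates 1 to 5. In RG2833 replicates 1 to 5 it was at 40.8, 44.1, 41.8, 47.3 and 49.9 CPM. Untreated replicate 3 was the highest of all 10, and 4 of 5 treated rats lay above the untreated mean, as with Apoe. The log2 fold change was 0.13 (SE 0.11; edgeR adjusted p = 0.916; exact permutation p = 0.310, n = 5 each), and 0.24 without untreated replicate 3 (unadjusted p = 0.00999, adjusted p = 0.299 in edgeR). Without untreated replicate 4, the lowest rat, it was 0.083.

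Abca7, a related transporter linked to phagocytosis, ran from 25.3 to 36.4 CPM in untreated rats (median 30.6) and from 26.7 to 31.4 CPM in RG2833 rats (median 28.8). Only 1 of 5 treated rats lay above the untreated mean. Its log2 fold change was -0.090 (SE 0.096; edgeR adjusted p = 0.924). The highest value was again in untreated replicate 3, and without that rat the log2 fold change was -0.019. Without untreated replicate 4, the lowest, it was -0.15.

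Both large receptors are type I membrane proteins of the LDL receptor family. Lrp1, which clears lipoproteins and amyloid-beta from the extracellular space, was at 820, 938, 972, 857 and 874 CPM in untreated replicates 1 to 5 and at 906, 904, 921, 1072 and 1134 CPM in RG2833 replicates 1 to 5. All 5 treated rats lay above the untreated mean of 892 ± 61.8 CPM, yet untreated replicates 2 and 3 exceeded 3 of them. The treated mean was 988 ± 108 CPM (SD, n = 5 each), with a log2 fold change of 0.15 (SE 0.091; 95% interval -0.054 to 0.35; edgeR adjusted p = 0.852; exact permutation p = 0.151). Leaving out each rat in turn gave from 0.094, without RG2833 replicate 5, to 0.18, without untreated replicate 3.

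Sorl1, the sorting receptor that returns amyloid precursor from endosomes, varied most between rats of a group. Untreated replicates 1 to 5 had 384, 408, 199, 421 and 474 CPM, and RG2833 replicates 1 to 5 had 432, 441, 450, 282 and 286 CPM. Thus 7 libraries lay between 384 and 474 CPM, and 3 lay between 199 and 286: untreated replicate 3 and RG2833 replicates 4 and 5. The highest rat had 2.39 times the level of the lowest, and the SD of log2 CPM within groups was 0.43, at the 86.3 percentile of all genes tested. The group means were 377 ± 105 and 378 ± 86.0 CPM (SD, n = 5 each), with a log2 fold change of 0.0048 and a 95% interval from -0.50 to 0.51 (edgeR adjusted p = 0.999). Changes in either direction within that interval are not excluded for Sorl1 by these rats.

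**Figure D2:**
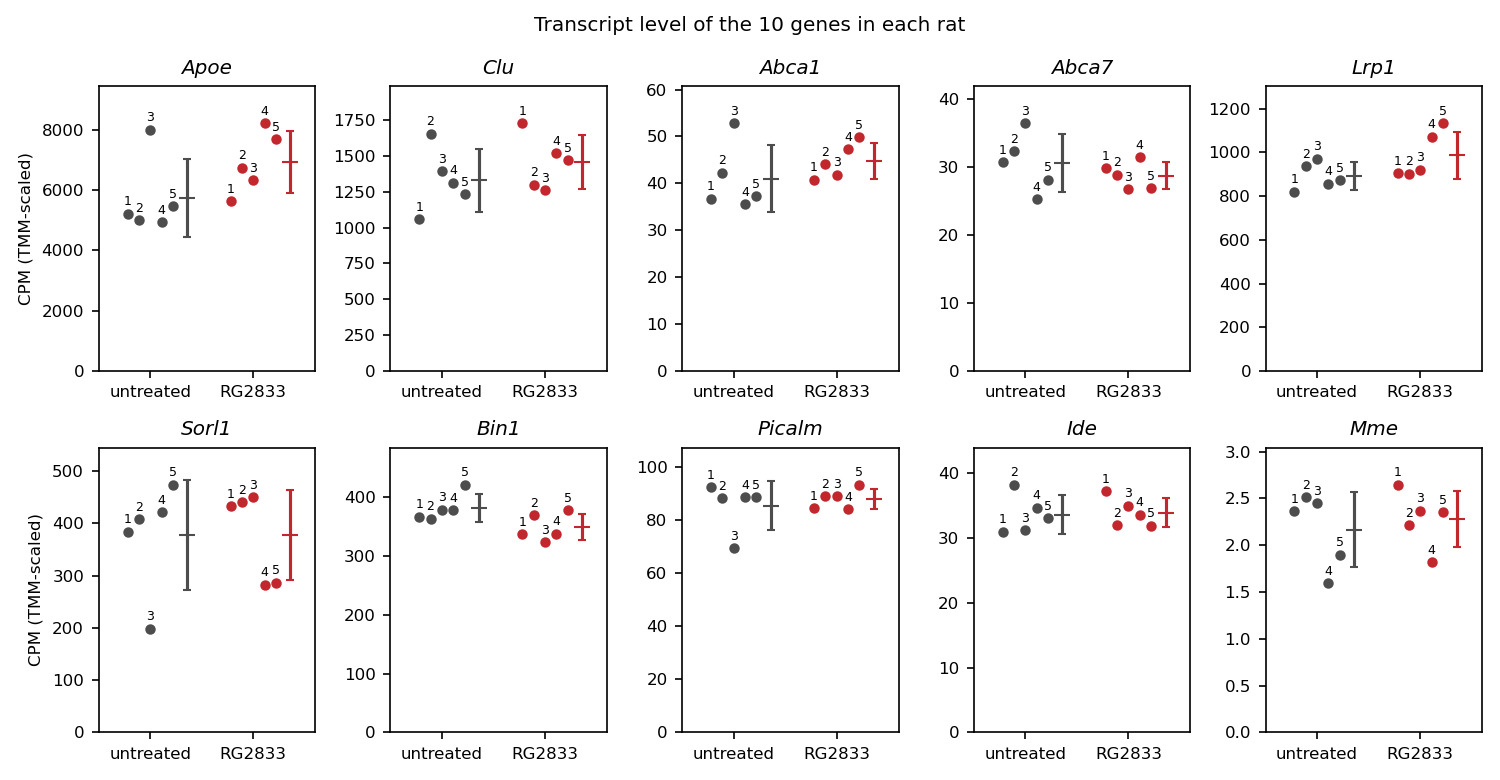
Each point is 1 rat, numbered by replicate, in CPM on a TMM-scaled library size with the axis from 0; bars beside the points are the mean ± SD of 5 rats. Untreated rat 3 lies near the RG2833 rats 4 and 5 for Apoe and Sorl1, and the groups overlap in all 10 panels.

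The endocytosis genes varied little between rats of a group, with SDs of log2 CPM of 0.089 for Bin1 and 0.12 for Picalm, at the 11.7 and 26.3 percentiles of all genes. Bin1, a membrane-bending protein abundant in oligodendrocytes and neurons, was at 367, 364, 379, 377 and 421 CPM in untreated replicates 1 to 5. RG2833 replicates 1 to 5 had 337, 369, 324, 338 and 377 CPM. All 5 treated rats lay below the untreated mean of 381 ± 23.1 CPM, and the ranges overlapped. The log2 fold change was -0.13 (SE 0.068; 95% interval -0.28 to 0.023; edgeR adjusted p = 0.841; exact permutation p = 0.0873, n = 5 each). Its sign was the same in all 21 alternative fits, from -0.16 to -0.089, and its adjusted p was at least 0.246 in each. The summed level of the 10 oligodendrocyte markers ran from 7533 to 14770 CPM in untreated and from 9005 to 16538 CPM in RG2833 rats; its part in the Bin1 level was not tested.

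Picalm, a clathrin assembly protein, was at 69.5 CPM in untreated replicate 3 and between 84.2 and 93.4 CPM in the other 9 libraries. Its log2 fold change of 0.042 (SE 0.078; edgeR adjusted p = 0.969) turned to -0.024 without that rat.

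For the amyloid-degrading enzymes the difference between groups was within the spread of rats. Ide, the insulin-degrading metallopeptidase, ran from 31.0 to 38.2 CPM in untreated (median 33.0) and from 31.9 to 37.2 CPM in RG2833 rats (median 33.6). Its interval is among the narrowest of the 10: the log2 fold change was 0.013, with 95% bounds of -0.15 and 0.18, which are folds of 0.901 and 1.13 (edgeR adjusted p = 0.996). Ide was highest in the 2 libraries rich in choroid plexus RNA, and so was Mme; the part of that RNA was not tested. Mme rests on few counts, from 26 to 49 per library. It was at 2.37, 2.51, 2.45, 1.59 and 1.90 CPM in untreated and at 2.65, 2.21, 2.37, 1.82 and 2.35 CPM in RG2833 replicates 1 to 5 (log2 fold change 0.073, SE 0.17; edgeR adjusted p = 0.977). Its 95% interval, from a fold of 0.805 to 1.37, excludes neither a rise nor a fall of that size.

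A pattern in some of these genes, also common over all genes, ran across rats of both groups. Untreated replicate 3, RG2833 replicate 4 and RG2833 replicate 5 held the 3 highest levels of Apoe, Abca1 and Lrp1 and the 3 lowest of Sorl1. Apoe was at 7693 to 8225 CPM in these and at 4936 to 6746 CPM in the other 7, and Abca1 at 47.3 to 52.8 against 35.6 to 44.1 CPM. For Lrp1 the ranges were 972 to 1134 and 820 to 938 CPM. These rats were singled out after the Sorl1 values were seen, and nothing in the labels sets them apart. Of all tested genes, 30.7% likewise had their 3 highest or 3 lowest values in these libraries, so 4 of 10 is close to the rate of any gene. In Clu the 3 libraries ranked just below the 2 rich in choroid plexus RNA and above the other 5, at 1391 to 1519 CPM. In Abca7, Bin1, Picalm, Ide and Mme they were neither the 3 highest nor the 3 lowest.

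Some markers of CA3 and dentate neurons, picked after their values were seen, were low in the same libraries. Cpne4 and Grik4 of CA3 pyramidal cells were at 66.3 to 120 and 29.5 to 77.7 CPM in the 3 libraries and at 222 to 288 and 99.8 to 137 CPM in the others. Prox1 of dentate granule cells was at 4.30 to 23.2 against 26.9 to 50.5 CPM. Calb1, also of granule cells, overlapped, at 66.6 to 90.6 against 65.7 to 80.3 CPM. The CA1 pyramidal list did not follow the pattern: in untreated replicate 3, RG2833 replicate 4 and RG2833 replicate 5 it lay -0.47, -0.056 and 0.23 from the mean of the 10 libraries, within the -0.50 to 0.57 of the other 7. In the same 3 libraries the astrocyte list lay 0.25, 0.42 and 0.43 above the mean of the 10 libraries on the log2 scale, and the microglia list 0.62, 0.22 and 0.31 above it, in the same order of rats. The endothelial list was also highest in these 3, at 0.52, 0.27 and 0.61, and the mural list was at 0.41, 0.27 and 0.34, where untreated replicate 2 had 0.34 too. The neuronal list was lowest in these 3, at -0.32, -0.17 and -0.24, and the oligodendrocyte list was mixed, at -0.55, -0.16 and 0.39. In bulk tissue, fewer cells of a type and less RNA per cell cannot be told apart. The part of cell makeup in the levels of Apoe, Abca1, Lrp1 and Sorl1 was not tested.

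**Figure D3:**
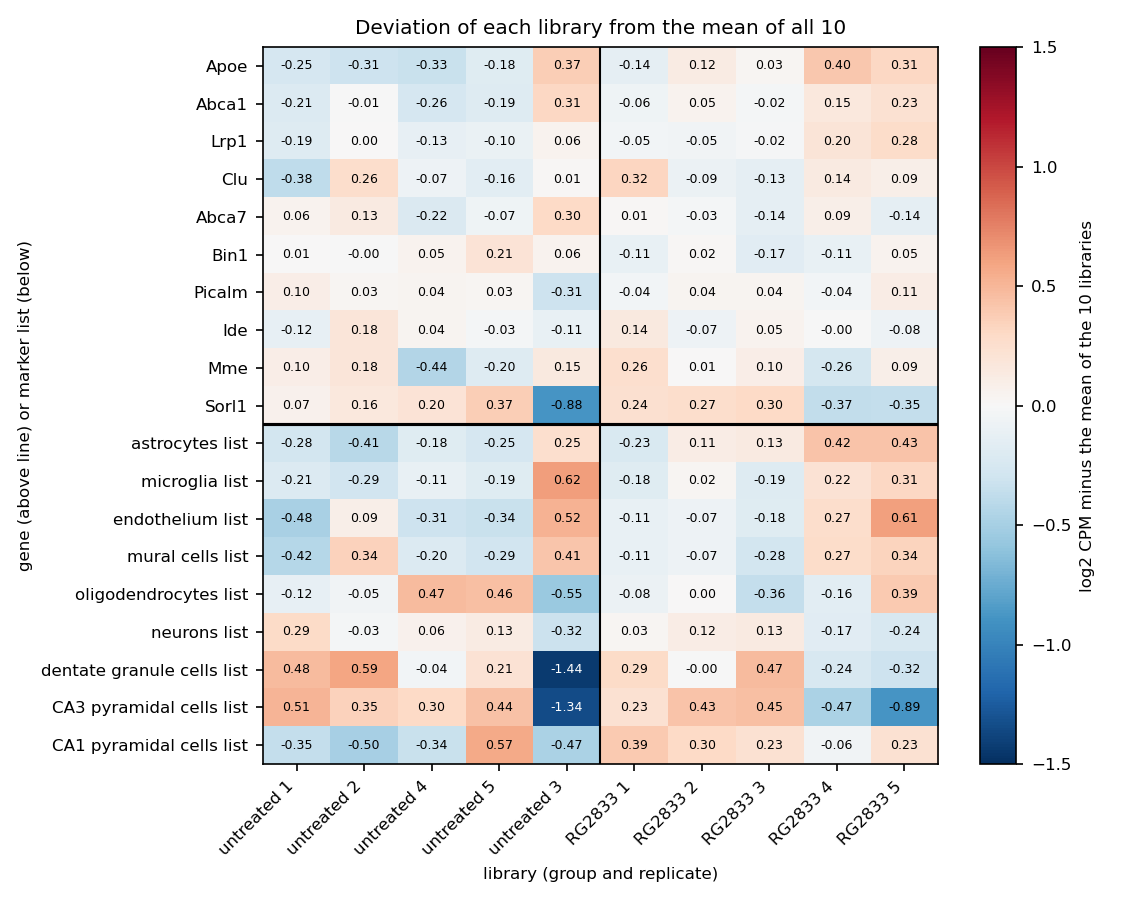
Each cell is the log2 CPM of a gene, or the mean log2 CPM of a marker list, in 1 library minus the mean of the 10 libraries; untreated replicate 3 stands last of its group. Its column and those of RG2833 replicates 4 and 5 are high for Apoe and the astrocyte list and low for Sorl1 and the CA3 list, at -0.88, -0.37 and -0.35 for Sorl1.

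None of the 7 marker lists had an adjusted p under 0.05. The smallest exact permutation p possible here is 0.00794, so 1 list alone could not have passed over 7 lists. The test therefore cannot show that cell makeup was alike in the groups. The astrocyte list had the smallest p: its mean log2 CPM was higher by 0.35 in RG2833 rats, with SDs of 0.25 and 0.27 (exact permutation p = 0.0873, n = 5 each; adjusted p = 0.611 over 7 lists). The summed level of its 10 genes ran from 6912 to 10740 CPM in untreated and from 7980 to 11812 CPM in RG2833 rats. This stands beside the Apoe estimate of 0.27 and was not tested as its source. The difference was 0.21 for endothelium, 0.071 for microglia, 0.061 for mural cells, -0.054 for neurons, -0.083 for oligodendrocytes and -0.90 for choroid plexus, with adjusted p = 0.738 for each by the exact permutation test. Lists added later gave 0.081 for dentate granule cells, -0.10 for CA3 and 0.43 for CA1 pyramidal cells, with exact permutation p = 0.905, 0.833 and 0.0794. No list had a marker at 0 in every library apart from 1 dentate granule gene.

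Each gene was then set against 5 marker lists over the 10 rats, 50 pairs in all, with permutation tests of 100000 resamples and Benjamini-Hochberg adjustment. By Pearson's r, 13 pairs had an adjusted p under 0.05, all of them for Apoe, Abca1, Lrp1 or Sorl1. The weakest of the 13 had an r of 0.78 in size. That value was reached by 17.0% of all pairs of the 12161 tested genes with the same lists, so a relation of this size is common in these libraries. The share of the 50 pairs, 26%, is fixed by that cut and is no comparison. Spearman's rho kept 2 of these. Libraries share scaling and dissection, and genes of the lists are not independent of each other. Each group has too few rats for a value of its own. With values centred within each group, 15 pairs passed.

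Apoe followed the astrocyte list (r = 0.95, permutation p = 0.00015, adjusted p = 0.00375; rho = 0.83, permutation p = 0.00482, adjusted p = 0.0803). Without the 2 libraries farthest from the median of that list r was 0.91, and within the 7 libraries not high in Apoe it was 0.88. An r of that size with astrocytes was reached by 1.31% of all tested genes. Apoe also passed with microglia (r = 0.86, permutation p = 0.00085, adjusted p = 0.0106; rho = 0.75, permutation p = 0.0172, adjusted p = 0.127), where r was 0.86 without the 2 farthest libraries and 0.62 within the 7, and 15.3% of all genes reached its size. With values centred within each group, r was 0.94 with microglia and 0.93 with astrocytes. It passed with endothelium as well (r = 0.79, permutation p = 0.00794, adjusted p = 0.0331; rho = 0.70, permutation p = 0.0317, adjusted p = 0.160), with r of 0.64 without the 2 farthest libraries and 0.23 within the 7, and a share of 17.2% of all genes. Of the 5 lists, Abca1 followed the endothelial one most closely (r = 0.94, permutation p = 9.0e-05, adjusted p = 0.00375; rho = 0.93, permutation p = 0.0003, adjusted p = 0.00825). The mural list, also of vessels, was not among the 5. The r of Abca1 with endothelium was 0.90 without the 2 farthest libraries and 0.82 within the 7, and 0.609% of all tested genes reached its size over the 10. Lrp1 gave r = 0.90 with the endothelial list (permutation p = 0.00054, adjusted p = 0.009; rho = 0.93, permutation p = 0.00033, adjusted p = 0.00825), and 0.94 without the 2 farthest libraries and 0.93 within the 7; 3.09% of all tested genes reached its size over the 10. The endothelial list has 8 tested genes, with a summed level from 243 to 514 CPM.

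Lrp1 also ran opposite to the neuronal list (r = -0.83, permutation p = 0.00296, adjusted p = 0.0164; rho = -0.81, permutation p = 0.00752, adjusted p = 0.0940), with r of -0.89 without the 2 farthest libraries and -0.76 within the 7, and 14.5% of all genes reached its size. Abca1 with microglia (r = 0.85, permutation p = 0.0012, adjusted p = 0.012; rho = 0.66, permutation p = 0.0435, adjusted p = 0.167) gave r of 0.61 without the 2 farthest libraries and 0.19 within the 7; the 3 libraries set aside hold the highest values of both, which by itself narrows the range. Its size was reached by 17.5% of all genes. Other pairs also had a smaller r in these subsets, given in the same order. Abca1 with neurons (r = -0.86, permutation p = 0.00185, adjusted p = 0.0144; rho = -0.76, permutation p = 0.0155, adjusted p = 0.127) gave -0.66 and -0.39, with a share of 10.0% of all genes. Abca1 with astrocytes (r = 0.78, permutation p = 0.00942, adjusted p = 0.0362; rho = 0.68, permutation p = 0.0353, adjusted p = 0.160) gave 0.69 and 0.43, with a share of 17.2%. Lrp1 with astrocytes (r = 0.80, permutation p = 0.0036, adjusted p = 0.0180; rho = 0.68, permutation p = 0.0347, adjusted p = 0.160) gave 0.49 and 0.21, with a share of 15.3%. For Sorl1 the rats fall into a cluster of 3 and one of 7, and no pooled value is given. Over the 10 rats it passed with a positive r for neurons and negative ones for microglia and endothelium. Within the 7 each sign was the reverse: r was -0.23 with neurons, 0.29 with microglia and 0.14 with endothelium. Clu, Abca7, Bin1, Picalm, Ide and Mme had no pair that passed.

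**Figure D4:**
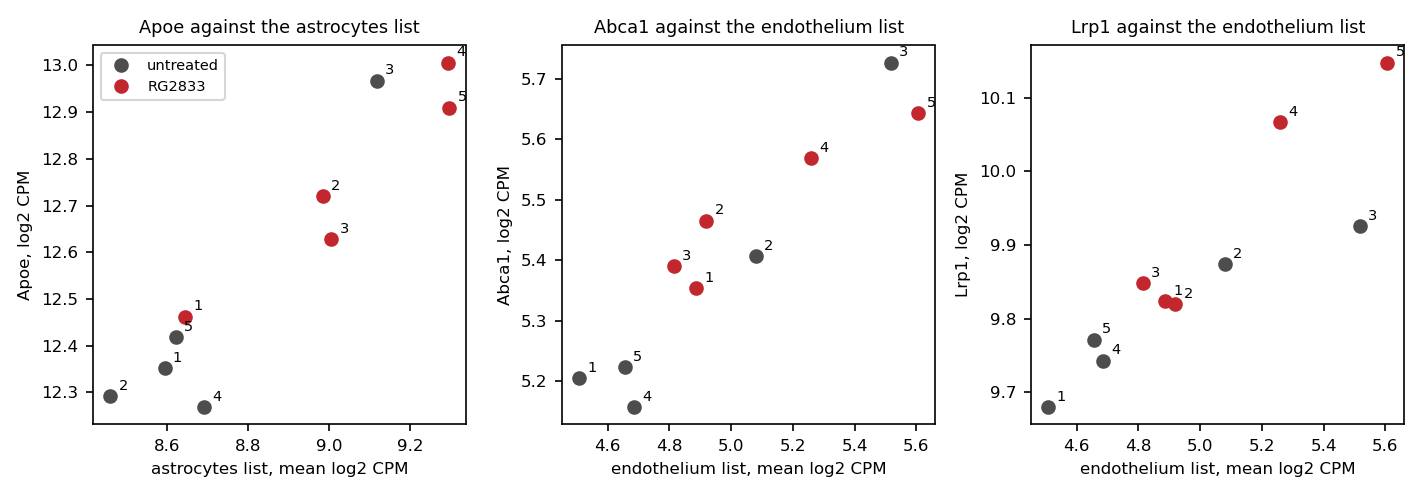
Each point is 1 rat, numbered by replicate, with the mean log2 CPM of a marker list on the horizontal axis and the log2 CPM of the gene on the vertical axis. Apoe rises with the astrocyte list (r = 0.95), and Abca1 and Lrp1 rise with the endothelial list (r = 0.94 and 0.90), with points of both groups along each trend.

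Among themselves the 10 genes form 45 pairs. The closest were Apoe with Abca1 (r = 0.89, permutation p = 0.00083, adjusted p = 0.0373; rho = 0.84, permutation p = 0.00386, adjusted p = 0.0868) and Abca1 with Lrp1 (r = 0.82, permutation p = 0.00298, adjusted p = 0.0487; rho = 0.88, permutation p = 0.00163, adjusted p = 0.0733). Without the 2 libraries farthest from the median of the first gene, r was 0.85 and 0.88, and within the 7 libraries it was 0.68 and 0.82. Sorl1 with Abca1, the third pair to pass by r, had a negative r over the 10 libraries but 0.19 within the 7. The share of all gene pairs with an r of this size was not computed. No pair passed by rho.

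The genes whose levels ran most like each of the 10 over these libraries were found among all 12161, as a description. For Apoe they were Atp13a4, Slc27a1 and Rab13, each at a Pearson's r of 0.99. For Sorl1 they were Gpr155 (0.99), Copg2 (0.99) and Trim2 (0.98). Abca1 ran most like Notch3, a receptor of mural cells (0.98), Tmem204 (0.98) and Selenbp1 (0.97). Lrp1 ran most like Tm4sf1 (0.96), Igfbp7 (0.96) and Tnfsf12 (0.95). Clu ran with Unc119b (0.97), Atp6v0e1 (0.96), a subunit of the proton pump of lysosomes, and Rilp (0.96). Bin1 was closest to Slc22a15 (0.94), Fam227b and Sh3glb2 (0.87 each), and Picalm to Trappc8 (0.98), Rac1 (0.95) and RT1-M6-1 (0.92). For Abca7 near ones were Abcb6 (0.95) and Engase (0.92), for Ide Anapc1 (0.95), Xpo4 (0.95) and Osbpl9 (0.92), and for Mme, the gene with fewest counts, Cog2 (0.84), Sufu (0.82) and Nlrx1 (0.81).

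Around these genes, 7 lists of their pathways were described, holding 114 tested genes, 10 of them the genes above. None passed in edgeR: 0 of 114 had an adjusted p under 0.05, and 2 had an unadjusted p under 0.05, where 5.66% of all genes did. In total 63 were higher and 51 lower in RG2833, with a median log2 fold change of 0.012 against -0.011 over all genes.

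Of the lipid carriers and lipoprotein enzymes, 8 were higher and 6 lower. Apoc1, the apolipoprotein gene next to Apoe, had the highest value, with means of 28.7 ± 5.66 CPM untreated and 37.2 ± 5.63 CPM treated (SD, n = 5 each; log2 fold change 0.37, SE 0.14; edgeR unadjusted p = 0.0252, adjusted p = 0.841). Lcat, which esterifies cholesterol on lipoproteins, had the lowest, from a mean of 27.5 ± 5.77 CPM untreated to 19.9 ± 7.76 CPM treated, a log2 ratio of -0.47 (SE 0.23; adjusted p = 0.841 by edgeR). Of the lipid exporters and their nuclear receptors, 7 were higher and 5 lower, from -0.17 for Abca2 to 0.30 for the retinoid receptor Rxrg.

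Of the lipoprotein and sorting receptors, retromer included, 9 were higher and 10 lower, from -0.40 for Lrp2 to 0.29 for Lrp4. Of the clathrin endocytosis genes 11 were higher and 13 lower; Bin1 was itself the lowest, and Itsn1, an endocytic scaffold, the highest at 0.24. Of the peptidases 11 were higher and 6 lower, from -0.20 for Ece2, an endothelin-converting enzyme, to 0.17 for the gelatinase Mmp9. In the group of barrier efflux and perivascular genes 7 were higher and 2 lower, with a median of 0.14; the lowest was Ager, the receptor for glycated proteins, at -0.21. Of the other Alzheimer risk genes 10 were higher and 9 lower. Fermt2, an integrin adaptor, was highest at 0.28. The lowest was Apbb3, which binds the tail of amyloid precursor protein, with means of 26.7 ± 2.20 CPM untreated and 20.7 ± 3.72 CPM treated (SD, n = 5 each; log2 fold change -0.37, SE 0.12; edgeR unadjusted p = 0.0112, adjusted p = 0.841; exact permutation p = 0.0159). Leaving out each rat in turn gave from -0.45 to -0.28 for Apbb3 and from 0.31 to 0.49 for Apoc1. Others moved more: Rxrg ran from 0.10 (without untreated replicate 2) to 0.64 (without untreated replicate 3), Lcat from -0.74 (without RG2833 replicate 4) to -0.38 (without RG2833 replicate 3), and Ece2 from -0.25 (without untreated replicate 5) to -0.090 (without untreated replicate 1). For Lrp2 the range was -0.60 (without untreated replicate 3) to -0.24 (without untreated replicate 2), for Lrp4 0.19 (without RG2833 replicate 4) to 0.45 (without untreated replicate 3) and for Mmp9 0.026 (without untreated replicate 3) to 0.33 (without untreated replicate 1).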

How the data were processed

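Per the labels' protocols, a spin-column kit gave the RNA and a stranded mRNA kit the libraries. The submitters' processing notes name bcl2fastq 2.17, Bowtie2 2.1.0, RSEM 1.2.15, edgeR and the build rn6; the annotation is not given in the sources used here, nor is the handling of reads from the human transgenes. The deposited values are RSEM expected counts per gene (11.6% not whole) and the authors' TMM-scaled CPM signal, which 100% of values show to be whole multiples of 1 step (tolerance 0.001 of the value); the whole reads recovered equalled the rounded expected counts in 100% of cases, and edgeR called 0 genes on them. The deposited expected counts, after rounding, went into edgeR 4.0.16 (R 4.3.3): filterByExpr (minimum count 10, minimum total 15), TMM, robust quasi-likelihood F test, Benjamini-Hochberg adjustment with a threshold of 0.05. SEs and intervals come from the F statistic. A prior count of 2 was added for log2 CPM. Single values were compared by exact permutation over 252 regroupings (smallest p 0.00794). Over 45 library pairs the chi-square per gene was at least 7.20, so no libraries were merged. The fits were tested on simulated data. Alternatives used limma 3.58.1, DESeq2 1.42.0 and sva 3.50.0.

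The 10 genes, the pathway lists and the marker lists were chosen with earlier results of these data known. Lists for dentate granule, CA3 and CA1 cells were added after the values were seen. Named by rule were the 10 genes, the 3 tested genes with a symbol closest to each by Pearson's r, and in each pathway list the highest, the lowest and any gene with an unadjusted p under 0.05; Cpne4, Grik4, Prox1, Calb1 and Ttr were named after their values were seen. Some genes that this rule names are not reported here. RefSeq symbols matched 10 of the 10 genes.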

Additional observations from a re-analysis of the deposited data

Results flagged for a closer look

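In 40 sets of 5 values, the highest or lowest rat was singled out where more than 0.71 of its group's range separated it from its neighbour. This happened in 7 sets, where chance gives about 2 for sets chosen beforehand. The CA3 and CA1 lists among the 7 were added after the values were seen, so these counts cannot be compared. Untreated replicate 3 accounted for 4 of them: Apoe, at 8009 CPM where the rest of the group had 4936 to 5473 CPM (gap 0.825 of the range), Picalm, at 69.5 against 88.2 to 92.4 CPM (0.813), the microglia list, at a mean log2 CPM of 6.48 against 5.57 to 5.75 (0.806), and the CA3 list, at 5.34 against 6.98 to 7.19 (0.889). Bin1 was at 421 CPM in untreated replicate 5 against 364 to 379 CPM (0.735). The CA1 list in the same rat was at 6.98 against 5.90 to 6.07 (0.848). The choroid plexus list in RG2833 replicate 1 was at 7.65 against 0.10 to 2.06 (0.741). The sets share libraries and are not independent.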

How the results depend on the processing

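In each of 21 alternative fits none of the 10 genes had an adjusted p under 0.05; the smallest was 0.0929, for Clu with 2 surrogate variables estimated on CPM. The number of genes called over the whole table was 6 in DESeq2 and 118 with 2 surrogate variables, against 0 in edgeR; the cause was not tested. Leaving out each rat in turn gave 0 calls each time, with 375 (without RG2833 replicate 4) to 1732 genes (without untreated replicate 3) at an unadjusted p under 0.05. The signs of Apoe, Clu, Abca1, Lrp1, Bin1 and Abca7 held in all 21. The fit on recovered reads has the same input as the one reported and is not counted here. Sorl1 turned to -0.064 and Picalm to -0.011 in limma-voom with sample weights. Without both libraries rich in choroid plexus RNA Sorl1 was at -0.026. Without the 3 libraries lowest in Sorl1, an alternative chosen after seeing the data, Picalm was at -0.036, Mmp9 at -0.0061, Lrp1 at 0.059 and Apoe at 0.27 (edgeR unadjusted p = 0.0217, adjusted p = 0.869). Over the fits that left out 1 rat, log2 fold changes ran from -0.16 to 0.10 for Sorl1, -0.024 to 0.071 for Picalm, -0.022 to 0.064 for Ide, -0.017 to 0.15 for Mme and -0.41 to 0.086 for Ager. List differences ran from 0.0059 to 0.24 for microglia, 0.083 to 0.36 for endothelium, -0.037 to 0.17 for mural cells, -0.14 to 0.012 for neurons, -0.23 to 0.025 for oligodendrocytes and -2.23 to 0.22 for choroid plexus. With the replicate number as a block, 0 genes were called and 401 had an unadjusted p under 0.05, against 688; same-numbered rats did not deviate together (correlations from -0.49 to -0.034), so the numbers do not pair them. Of the 10 genes Mme has the fewest counts, 26 to 49 a library, which limits its precision.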
